A study of Homo sapiens with 6 samples.

Results

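The BCL2 family decides whether the mitochondrial outer membrane opens and releases the factors that start apoptosis. Its members fall into guardians, which hold the membrane closed, effectors, which form the pore, and BH3-only proteins, which bind and neutralise guardians or switch on effectors. Small cell lung cancer often depends on these guardians, and a prolonged mitotic arrest, the state that inhibitors of polo-like kinase 1 produce, is known to end in death through this pathway. A list of 10 genes was followed here, with 3 guardians (*BCL2*, *BCL2L1* and *BCL2L2*), 2 effectors (*BAX* and *BAK1*) and 5 BH3-only genes (*BCL2L11*, *BBC3*, *PMAIP1*, *BID* and *BAD*). They were picked by symbol from 62710 genes of the deposited table, and all 10 were among the 16347 genes that passed a minimum mean value of 10 over the libraries.

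H526 is a line of small cell lung cancer. RNA came from its parental cells and from resistant cells, which had been kept for more than a year in onvansertib, an inhibitor of polo-like kinase 1, at concentrations raised from 10 to 75 nM. Each group had 3 libraries, from RNA taken at 3 separate times, numbered 1 to 3 in parental and 7 to 9 in resistant cells. Only 1 resistant line is described, whether drug was in the medium at extraction is not given in the sources used here, and the effect of the drug itself and that of long selection cannot be told apart. The p-values measure the spread between these 3 extractions of a line.

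The values are counts after DESeq2 normalization, and the smallest steps in them gave depths of 22.3e6 to 28.5e6 reads per library, which are approximate since 45.4% to 59.8% of low values were whole multiples of a step within 0.05. The test was limma on log2(value + 1), and p-values were adjusted by Benjamini-Hochberg over all genes tested, with a threshold of 0.05. A log2 fold change is on that scale, positive when higher in resistant cells, and an exact permutation test of 3 against 3 libraries cannot go below p = 0.1. Of all genes tested 37.7% were called, 17.8% higher and 19.8% lower in resistant cells. The groups did not overlap in 49.9% of genes. In bulk RNA, fewer cells of a type and less RNA per cell cannot be told apart. *POU2F3*, which defines the tuft-like subtype of this cancer, lay at 24511 to 26810 in parental and at 26844 to 27873 in resistant cells. The groups were narrowly apart, and it did not pass the test (adjusted p = 0.304 by limma). Of the other 4 tuft-like markers *AVIL* and *ASCL2* fell to 57.4% and 72.2% of the parental mean, and *TRPM5* and *SOX9* rose 3.40-fold and 1.27-fold. The tuft-like sum lay at 68464 to 69268 in parental and at 61873 to 63325 in resistant cells. Within it the mean of *AVIL* went from 20954 to 12018 and that of *SOX9* from 12997 to 16495. *AVIL* lies on chromosome 12, where the median log2 fold change of all 835 tested genes was -0.34. *YAP1*, which marks another subtype, rose 2.28-fold but stayed low, at 40.9 to 52.9 in parental and 92.6 to 121 in resistant cells. The summed neuroendocrine markers lay at 7029 to 8468 in parental and at 1454 to 1689 in resistant cells. The summed fibroblast markers (*COL1A1*, *COL1A2*, *DCN* and *LUM*) lay at 128 to 178 and at 369 to 587. Only the collagen genes rose in that sum, *COL1A1* from a mean of 59.7 to 269 and *COL1A2* from 86.0 to 201. *LUM* was at 6.27 and 4.74, and *DCN* was at or under 3 reads in every library. The summed leukocyte markers (*PTPRC*, *CD3E*, *CD79A* and *LYZ*) stayed between 3.91 and 12.2. The part of these markers in the results on the BCL2 family was not tested.

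Of the 10 BCL2 family genes, 5 were called by limma. *BCL2L2* was higher in resistant cells, and *BCL2L1*, *BAK1*, *PMAIP1* and *BAD* were lower. Each of the 5 changed by less than 2-fold. The other 5 genes, *BCL2*, *BAX*, *BCL2L11*, *BBC3* and *BID*, did not pass the test. The share of genes called lower was 4 of 10 against 19.8% of all genes tested, and that called higher 1 of 10 against 17.8%. The median log2 fold change of the 10 genes was -0.16, against 0.00 over all genes tested. The groups did not overlap for 6 of the 10 genes, against 49.9% of all genes tested. In 1 of them resistant cells were higher, against 24.0% of all genes, and in 5 lower, against 25.9%.

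The upstream sequences of the 2 genes that fell most, *BAD* and *PMAIP1*, are shown because both hold the core of the cyclic AMP response element (CRE), the letters TGACGT or their reverse complement ACGTCA. The 250 bases before the start of the gene on GRCh38.p14 are given as RefSeq has them, from 5′ to 3′ on the strand of the gene, with CRE cores and GC boxes (GGGCGG or CCGCCC) in capitals. *PMAIP1* lies on the plus strand (chr18:59899746-59899995) and *BAD* on the minus strand (chr11:64284705-64284954).
PMAIP1: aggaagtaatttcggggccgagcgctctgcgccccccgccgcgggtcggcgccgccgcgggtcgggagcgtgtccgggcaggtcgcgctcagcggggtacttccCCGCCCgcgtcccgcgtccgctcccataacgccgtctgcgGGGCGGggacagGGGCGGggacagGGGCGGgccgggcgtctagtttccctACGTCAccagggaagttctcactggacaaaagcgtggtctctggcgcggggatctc
BAD: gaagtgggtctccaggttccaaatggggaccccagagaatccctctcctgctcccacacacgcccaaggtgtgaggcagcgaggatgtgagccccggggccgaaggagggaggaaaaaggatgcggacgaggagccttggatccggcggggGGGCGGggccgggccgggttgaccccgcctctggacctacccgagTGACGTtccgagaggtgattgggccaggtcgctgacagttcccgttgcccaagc
Each sequence holds 1 CRE core. The window of *PMAIP1* has 4 GC boxes and that of *BAD* has 1. *BCL2L2*, the gene called higher, had no entry in the RefSeq table and was not searched. Among the 9 of 10 genes found there, a CRE core stood in these 2 only. Of 35116 upstream windows of the same length, 7.10% hold one on either strand. GC boxes, found in 42.6% of all windows, also stood before *BAX*, *BAK1*, *BCL2L11* and *BID*. The E-box CACGTG, which is its own reverse complement and stands in 6.34% of all windows, was found 4 times before *BAX*, once before *BBC3* and at 2 of the 5 starts listed for *BID*. CCAAT (or ATTGG, 32.0% of windows) stood before *BAX*, *BAK1*, *BCL2L11*, *BBC3* and *BAD*, and TATAAA (or TTTATA, 10.7% of windows) at 1 of the 2 starts listed for *BCL2L1*. None of the 5 motifs stood before *BCL2*. The motifs were chosen after the values had been seen, and a match is no evidence that a factor binds there.

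The 3 guardians moved in different directions. *BCL2* (ENSG00000171791, minus strand of chromosome 18 of GRCh38, 63123346 to 63320128), the founding guardian and the target of venetoclax, had normalised values of 3417, 3676 and 3527 in parental libraries 1, 2 and 3 and of 3311, 3242 and 2911 in resistant libraries 7, 8 and 9. Every resistant library lay below every parental library, but the gap was narrow. The mean fell short of the test at 3540 ± 130 against 3154 ± 214 (SD, n = 3), a log2 fold change of -0.17 with a 95% interval from -0.32 to -0.01 (adjusted p = 0.0849 by limma).

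*BCL2L1* (ENSG00000171552, minus strand of chromosome 20, 31664452 to 31723989) encodes BCL-XL, which guards the membrane against both effectors. Its values were 2592, 2352 and 2428 in the parental and 1829, 1724 and 1705 in the resistant libraries. The groups did not overlap, and resistant cells held 71.3% of the parental mean (log2 fold change -0.49, standard error 0.07, adjusted p = 0.000433 by limma). The table counts whole genes, so the long and the short product of *BCL2L1*, which act in opposite ways, were not told apart.

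*BCL2L2* (ENSG00000129473, plus strand of chromosome 14, 23298790 to 23311751) encodes the guardian BCL-W. It was at 712, 834 and 741 in the parental and at 1012, 1098 and 1082 in the resistant libraries. All resistant values lay above all parental values. The mean rose 1.40-fold (log2 fold change 0.48, standard error 0.09, adjusted p = 0.00211 by limma). Its exons share 815 bases with the read-through gene *BCL2L2-PABPN1*, which rose from 149 ± 18.5 to 428 ± 22.7 (SD, n = 3), and 315 and 149 bases with *PPP1R3E* and *HOMEZ* on the other strand, which rose 2.28-fold and 1.59-fold. Reads of these genes may have been divided with error, and the value of *BCL2L2* is uncertain to that extent.

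**Figure D1:**
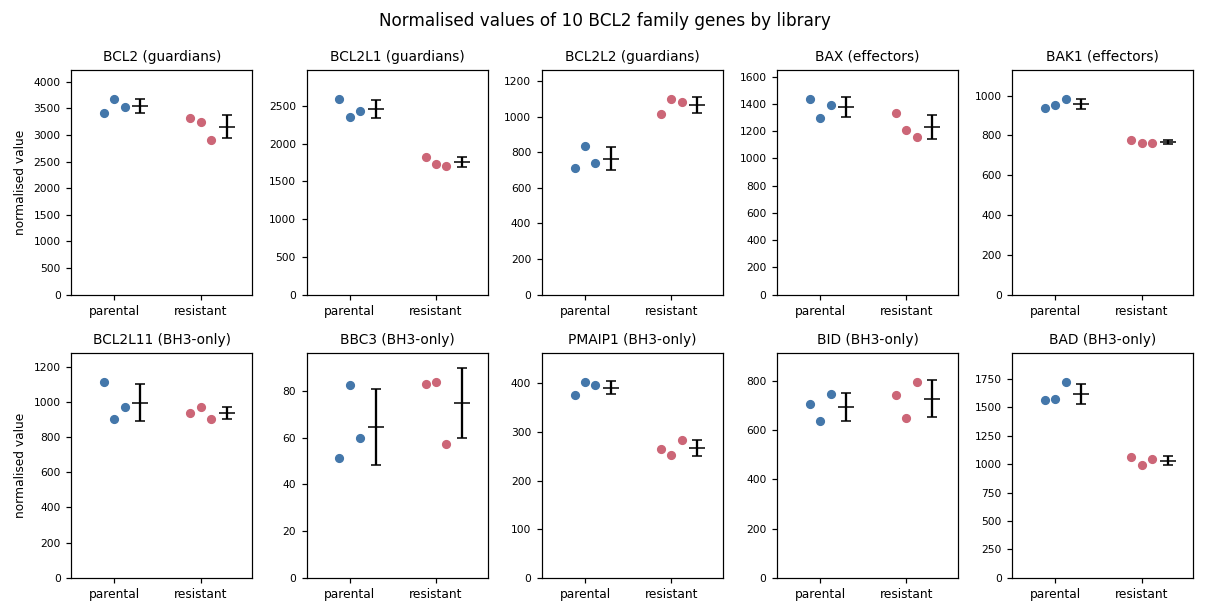
Normalised value of each of the 10 BCL2 family genes (vertical axes from 0) in 3 parental (blue) and 3 resistant (red) libraries, as points, with the mean and SD of each group beside them. The points of the groups are apart for *BCL2L1*, *BCL2L2*, *BAK1*, *PMAIP1* and *BAD*, narrowly apart for *BCL2*, and mixed for the other 4 genes.

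Of the 2 effectors, *BAK1* fell and *BAX* did not pass the test. *BAK1* (ENSG00000030110, minus strand of chromosome 6, 33572547 to 33580293), which sits in the outer membrane, was at 936, 951 and 983 in the parental and at 777, 759 and 763 in the resistant libraries. Its values were tight within each group and did not overlap. Resistant cells held 80.1% of the parental mean (log2 fold change -0.32, standard error 0.08, adjusted p = 0.00938 by limma). Both processed copies listed for it, *BAK1P1* and *BAK1P2*, had values of 1.04 or less in every library.

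*BAX* (ENSG00000087088, plus strand of chromosome 19, 48954815 to 48961798), which moves from the cytosol to the membrane before the pore forms, was at 1435, 1296 and 1393 in the parental and at 1330, 1208 and 1157 in the resistant libraries. Resistant library 7 lay above parental library 2. The log2 fold change was -0.16, with a 95% interval from -0.34 to 0.02 (adjusted p = 0.157 by limma, exact permutation p = 0.2), so that a 0.788-fold and a 1.02-fold level both lie within it.

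The 5 BH3-only genes split into 2 that fell and 3 that did not pass the test. *BAD* (ENSG00000002330, minus strand of chromosome 11, 64269830 to 64284704), a sensitizer that binds BCL2, BCL-XL and BCL-W, was at 1566, 1573 and 1721 in the parental and at 1061, 989 and 1046 in the resistant libraries. This was the largest fall of the 10 genes, to 63.7% of the parental mean (log2 fold change -0.65, standard error 0.08, adjusted p = 0.000131 by limma). Of all genes tested, 9.38% had a log2 fold change as low or lower. Its exons share 404 of 1708 bases with *GPR137* on the other strand, which fell to 79.0% of its parental mean, and whether the counting used strand is not given in the sources used here.

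*PMAIP1* (ENSG00000141682, plus strand of chromosome 18, 59899996 to 59904305) encodes NOXA, which binds MCL1. It was at 375, 402 and 396 in the parental and at 264, 252 and 283 in the resistant libraries. The groups were apart, with 68.1% of the parental mean left in resistant cells (log2 fold change -0.55, standard error 0.11, adjusted p = 0.00375 by limma). *PMAIP1* and *BCL2* both lie on the long arm of chromosome 18.

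*BCL2L11* (ENSG00000153094, plus strand of chromosome 2, 111119378 to 111168444) encodes BIM, an activator that binds every guardian. It was at 1111, 902 and 972 in the parental and at 939, 972 and 901 in the resistant libraries, so that the groups were mixed. The log2 fold change was -0.08, with a 95% interval from -0.29 to 0.13 (adjusted p = 0.533 by limma).

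*BID* (ENSG00000015475, minus strand of chromosome 22, 17734138 to 17774770), which caspase-8 cleaves to link death receptors to mitochondria, was at 704, 635 and 746 in the parental and at 740, 649 and 794 in the resistant libraries. The groups were mixed, and the log2 fold change was 0.06, with a 95% interval from -0.17 to 0.30 (adjusted p = 0.667 by limma). *BBC3* (ENSG00000105327, minus strand of chromosome 19, 47220822 to 47232766) encodes PUMA, which binds every guardian. It had the lowest values of the 10 genes, 51.2, 82.5 and 59.8 in the parental and 83.1, 83.8 and 57.4 in the resistant libraries. They overlapped widely, and the 95% interval of its log2 fold change, -0.36 to 0.80 around 0.22, runs from a 0.778-fold to a 1.74-fold level (adjusted p = 0.546 by limma).

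Under 14 alternatives in scaling, filter, pseudocount, trend, position and libraries left out, *BCL2L1*, *BAK1*, *PMAIP1* and *BAD* were called lower each time, with a highest adjusted p of 0.0421 by limma, for *BAK1*. *BCL2*, *BAX*, *BCL2L11*, *BBC3* and *BID* were not called under any. *BCL2L2* lost its call under 1, described next.

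The genes beside *BCL2L2* were shifted in the same direction. Of the 50 tested genes around it, from 21.5 to 24.2 Mb of chromosome 14, 28 were called higher and 3 lower, and their median log2 fold change was 0.39, close to the median of 0.38 over the 555 tested genes of the chromosome. When the median deviation of these neighbours was taken off each library, the log2 fold change of *BCL2L2* was 0.10 and it was not called (adjusted p = 0.437 by limma). The other called members lay below the median of their neighbours, though 4 to 8 of the 50 neighbours of each lay lower still. *PMAIP1* lay 0.58 below the median of its 50 neighbours, *BCL2L1* 0.48 below, *BAD* 0.47 below and *BAK1* 0.30 below, on the log2 scale. The neighbours of *BAD* were themselves shifted, with a median of -0.18 and 19 of 50 called lower, and after the same centring its log2 fold change was -0.44 (adjusted p = 0.00208 by limma). Copy number was not measured here.

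**Figure D2:**
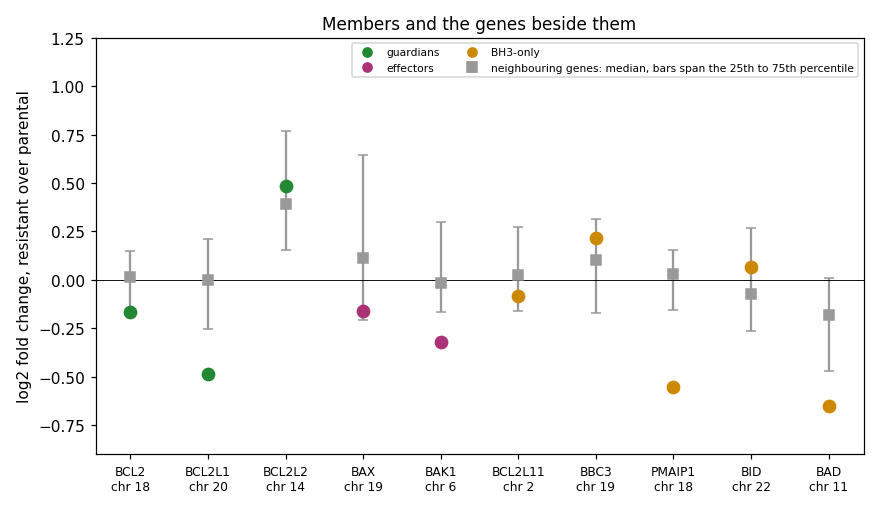
Log2 fold change of each of the 10 BCL2 family genes (coloured circles, by role) and the median over the tested genes beside it on its chromosome (grey squares, with bars from the 25th to the 75th percentile), resistant over parental. *BCL2L2* sits within the bar of its neighbours at 0.39, while *BCL2L1*, *BAK1*, *PMAIP1* and *BAD* sit below theirs.

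Levels of different genes were compared per kilobase (kb) of the longest annotated transcript, as a description without a test. In parental cells *BAD* was the most abundant of the 10, at 1354 to 1487 normalised units per kb, followed by *BAX* at 954 to 1057, *BCL2L1* at 722 to 796, *BCL2* at 458 to 493, *BAK1* at 423 to 444 and *BID* at 254 to 299. The ranges of *BCL2L2*, *PMAIP1* and *BCL2L11* overlapped between 174 and 234, and *BBC3* was lowest, at 27.7 to 44.7. In resistant cells *BAD* at 854 to 917 and *BAX* at 852 to 980 overlapped, *BCL2L2* at 284 to 308 had come level with *BID* at 260 to 318, and *PMAIP1* at 132 to 149 lay below *BCL2L11* at 174 to 188. Much of this order depends on the length used. Per kb of merged exons *BCL2L1* and not *BAX* came after *BAD* in parental cells, *BAK1* lay above *BCL2* in both groups, and *PMAIP1* lay above *BID* in parental cells. On that scale *BAD* stayed above *BAX* in resistant cells, at 579 to 621 against 447 to 514, and *BCL2L2* lay above *BID*, at 209 to 227 against 147 to 180.

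Summed by role, the guardians went from 1442 ± 14.7 to 1259 ± 37.6 units per kb (SD, n = 3) and the effectors from 1445 ± 52.9 to 1254 ± 69.4. The BH3-only genes went from 2112 ± 90.8 to 1546 ± 56.5, and most of that came from *BAD*. The ratio of guardians to effectors was 0.97 to 1.05 in the parental and 0.97 to 1.03 in the resistant libraries, and the ranges overlapped. The ratio of guardians to BH3-only genes was 0.64 to 0.71 and 0.77 to 0.86, and the ranges did not. The direction of the ratio to BH3-only genes holds for the 10 genes alone and turns when other family members are counted in, as given with *MCL1*. The ratio to effectors leaves *MCL1* out as well. With *MCL1* the guardian sum in resistant cells was 0.785-fold the parental one. The effector sum was 0.868-fold, or 0.922-fold with *BOK*, so the guardians fell further than the effectors. No test was made of these sums, since the genes were chosen with results known.

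Within the 3 listed guardians the make-up changed more than the sum. *MCL1* is not in this sum, and lay at 2260 to 2466 units per kb in parental and at 1662 to 1820 in resistant libraries. The shares depend on the length used. Per kb of merged exons that of *BCL2L1* was 54.7% to 59.6% in parental and 45.9% to 48.0% in resistant libraries. Those that follow are per kb of the longest transcript. *BCL2L1* made up 49.8% to 54.8% of the guardian sum in parental and 41.6% to 43.6% in resistant libraries, *BCL2L2* 13.7% to 16.1% and 22.0% to 24.9%, and *BCL2* 31.5% to 34.0% and 32.1% to 34.4%. The ratio of *BCL2L2* to *BCL2L1* went from 0.28 ± 0.04 to 0.56 ± 0.04 (SD, n = 3), and the ratio of *BCL2* to *BAX* stayed at 0.47 ± 0.04 and 0.47 ± 0.02. Messenger RNA was measured, not protein.

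**Figure D3:**
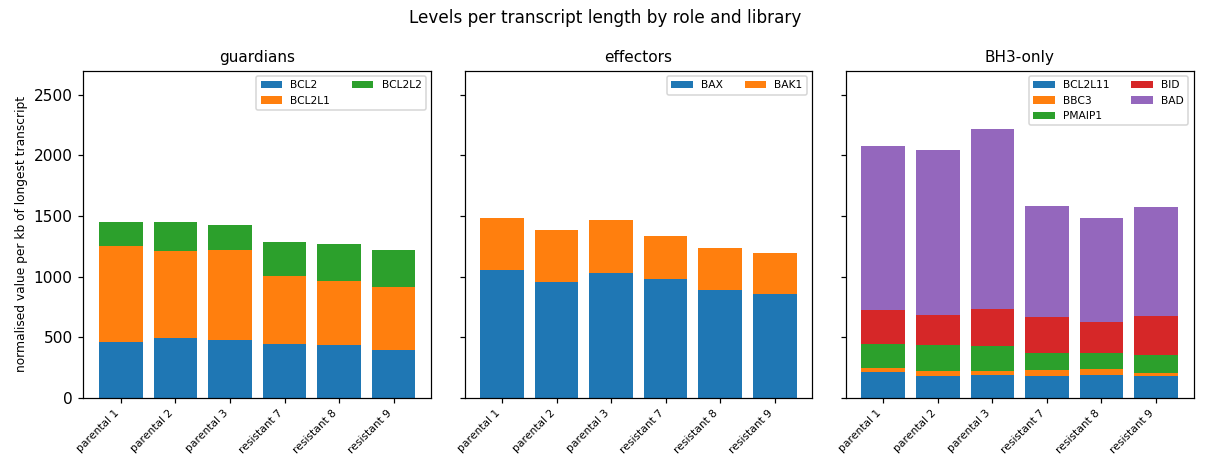
Normalised value per kb of the longest transcript (vertical axis), stacked by gene, for guardians, effectors and BH3-only genes in each of the 6 libraries. The guardian and effector stacks are of like height within a library, and the BH3-only stack is lower in resistant libraries, mainly in its *BAD* part.

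The rest of the family, 13 genes listed apart from the 10, held larger changes. Of the 10 that were tested, 2 were called higher (*BOK* and *BIK*) and 2 lower (*MCL1* and *BMF*), 40.0% of them against 37.7% of all genes tested. Their median log2 fold change was -0.01. *BOK* (chromosome 2, 241551424 to 241574131), an effector-like member that acts in the endoplasmic reticulum and mitochondria, was at 23.2, 17.5 and 19.6 in the parental and at 253, 193 and 229 in the resistant libraries. It rose 11.2-fold (log2 fold change 3.42, standard error 0.22, adjusted p = 3.49e-06 by limma), above each of its 34 tested neighbours. Per kb of transcript it still lay at 73.3 to 96.2, below *BAK1* at 343 to 351 in the same cells.

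*BIK* (chromosome 22, 43110750 to 43129712), a BH3-only protein of the endoplasmic reticulum, was at 297, 314 and 384 in the parental and at 953, 1020 and 1235 in the resistant libraries. It rose 3.22-fold (log2 fold change 1.69, standard error 0.13, adjusted p = 9.99e-06 by limma), above each of its 50 neighbours. Per kb it came to 1003 to 1299 in resistant cells, above *BAD* at 854 to 917, whereas in parental cells it lay below, at 313 to 404 against 1354 to 1487. With *BIK*, *BMF* and *HRK* counted in, the BH3-only sum was 2714 ± 114 in parental and 2863 ± 188 in resistant cells (SD, n = 3), and the ranges overlapped. Per kb of merged exons it was 2019 ± 86.2 and 2344 ± 177, without overlap.

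*MCL1* (chromosome 1, 150560895 to 150579738), the guardian that NOXA binds, had the highest values of the family, 11221, 10284 and 10960 in the parental and 7925, 7564 and 8282 in the resistant libraries. It fell to 73.2% of the parental mean (log2 fold change -0.45, standard error 0.06, adjusted p = 0.000339 by limma). Per kb its ratio with *PMAIP1* hardly moved, with 0.080 to 0.094 of *PMAIP1* for each unit of *MCL1* in parental and 0.080 to 0.082 in resistant cells. With *MCL1* counted in, the guardian sum went from 3821 ± 106 to 3001 ± 57.8 units per kb (SD, n = 3). The ratio of that sum to the BH3-only sum with *BIK*, *BMF* and *HRK* was 1.35 to 1.48 in the parental and 0.99 to 1.10 in the resistant libraries, lower in resistant cells without overlap.

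*BMF*, a BH3-only protein linked to the cytoskeleton, fell to 76.0% of its parental mean (log2 fold change -0.39, standard error 0.10, adjusted p = 0.00882 by limma). *BCL2L14* was at 9.25 ± 1.77 and 19.6 ± 0.90 (SD, n = 3), without overlap, but missed the threshold (adjusted p = 0.0558 by limma, and 0.00508 without the trend). It passed the minimum mean of 10 only through its resistant libraries, so that its entry in the test depended on the difference. With no filter on low values its adjusted p was 0.130 by limma. *BCL2L12*, *BCL2L13*, *HRK* and the mitophagy receptors *BNIP3* and *BNIP3L* did not pass the test, with log2 fold changes of 0.01, 0.14, -0.24, -0.16 and -0.03. *BCL2L15* had a mean under 10, and *BCL2A1* and *BCL2L10*, which are guardians, were under the value of 3 reads in every library.

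**Figure D4:**
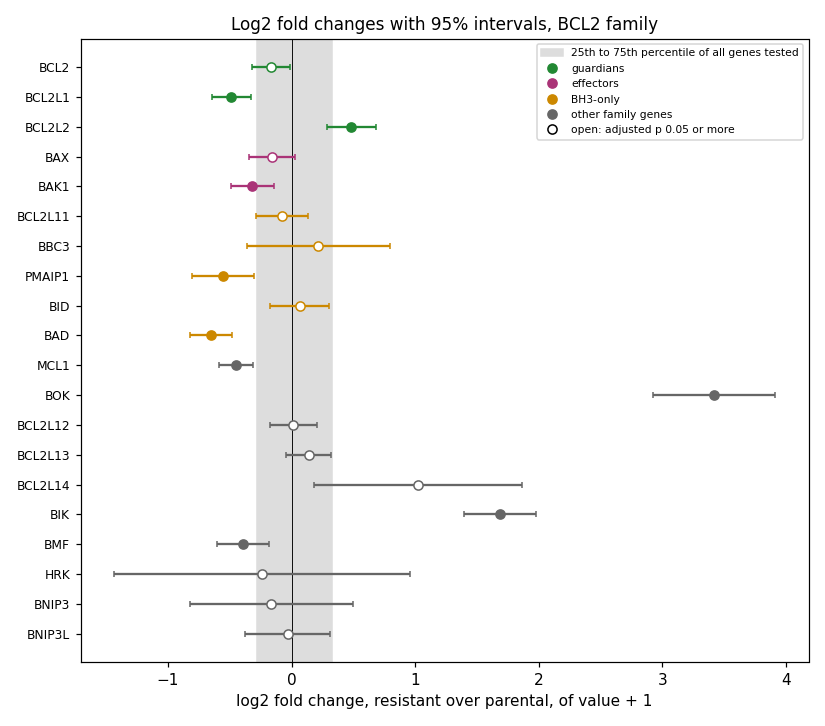
Log2 fold changes, resistant over parental, with 95% intervals for the 10 genes by role and for 10 other tested genes of the family, with filled points for an adjusted p under 0.05. The grey band runs from the 25th to the 75th percentile of all genes tested, -0.28 to 0.32. *BOK* at 3.42 and *BIK* at 1.69 lie farthest right, and *BAD* at -0.65 lies farthest left.

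Downstream of the pore, released cytochrome c and APAF1 form the apoptosome, which activates caspases. Of 10 tested genes of the apoptosome and caspases, 2 were called higher and 2 lower, 40.0% against 37.7% of all genes tested. *CASP8*, the initiator caspase of death receptors that cleaves BID, went from 8.83 ± 2.78 to 95.4 ± 18.5 (SD, n = 3), a 10.8-fold rise (log2 fold change 3.31, standard error 0.33, adjusted p = 4.22e-05 by limma). It passed the minimum mean only through its resistant libraries, so that its entry in the test depended on the difference, and its log2 fold change was 2.48 with a pseudocount of 10. Its resistant libraries were at 74.4, 109 and 103, far above every parental library. *CASP2* fell to 74.8%, a call that was lost when the shift of its neighbours was taken off (adjusted p = 0.292 by limma). *CASP10*, next to *CASP8* on chromosome 2, was under 3 reads in every parental library and at 4.39 to 7.37 in resistant cells, and its mean was too low for the test.

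Inhibitors of apoptosis block caspases, and DIABLO and HTRA2 leave the mitochondrion to remove them. Of 7 tested genes of this list, 1 was called higher and 3 lower, 57.1% against 37.7% of all genes tested. Among the latter, *HTRA2* lost its call with any of the 6 libraries left out. *DIABLO* fell to 58.2% of its parental mean (log2 fold change -0.78, adjusted p = 6.77e-05 by limma), in a stretch of chromosome 12 where 36 of 50 neighbours were called lower. With their shift taken off, it was at -0.22 and no longer called (adjusted p = 0.0583 by limma). *BIRC5*, survivin, fell to 75.9%, and *BIRC6*, a large ubiquitin ligase, rose 1.42-fold. *XIAP*, the direct caspase inhibitor, did not pass the test (log2 fold change 0.04, 95% interval -0.23 to 0.32). Of the 5 genes of membrane channels and released factors, *VDAC1* rose 1.33-fold and 4 were not called, against 37.7% called of all genes tested.

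Of 8 tested genes of the death receptor pathway, 1 was called higher and 0 lower, 12.5% against 37.7% of all genes tested. *TNFRSF10B*, the TRAIL receptor DR5, rose 1.65-fold (log2 fold change 0.72, standard error 0.09, adjusted p = 0.000238 by limma). In this list 7 of 8 log2 fold changes were above 0, with a median of 0.15 against -0.0009 over all genes tested. As 7 of the 8 genes were not called, these signs do not establish a rise of the list. The ligands *FASLG* and *TNFSF10* were at or under 3 reads in every library.

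Among the transcription factors known to act on BCL2 family genes, 1 of 9 tested was called higher and 3 lower, 44.4% against 37.7% of all genes tested. *DDIT3* (CHOP) and *ATF4*, which act together in the stress response and on some BH3-only genes, fell to 45.4% and 74.5% of their parental means (log2 fold changes -1.14 and -0.42, adjusted p = 0.000356 and 0.000861 by limma). *DDIT3* lies on chromosome 12, and with the shift of its neighbours taken off its log2 fold change was -0.57 (adjusted p = 0.0154 by limma). *FOXO1*, another activator of BH3-only genes, rose 2.23-fold, from 55.8 ± 12.9 to 124 ± 15.2 (SD, n = 3).

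MCL1 protein is short-lived and is removed after ubiquitin is attached to it. Of 5 genes for enzymes that add or remove that ubiquitin, *HUWE1*, a ligase, and *USP9X*, which takes ubiquitin off, were called higher, 40.0% against 37.7% of all genes tested in either direction and 17.8% higher. *HUWE1* went from 27546 ± 1790 to 46267 ± 8657 (SD, n = 3), a 1.68-fold rise. *USP9X* rose 1.21-fold (adjusted p = 0.0168 by limma), a call that was lost without the trend and without parental library 3 or resistant libraries 7 or 8 (adjusted p between 0.0632 and 0.0788 by limma).

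**Figure D5:**
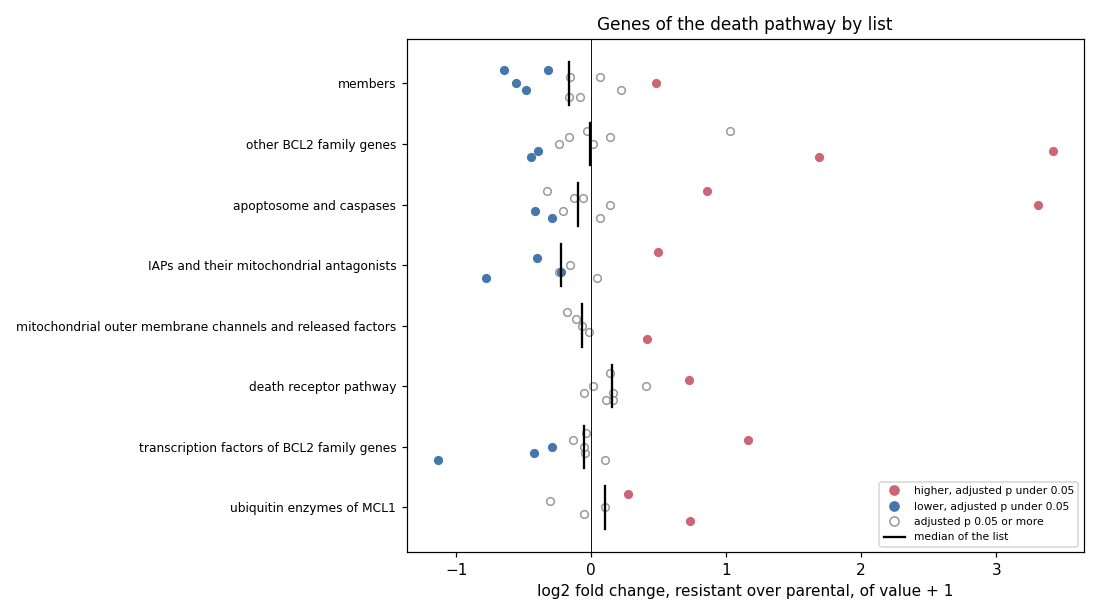
Log2 fold changes, resistant over parental, of the tested genes of each list (points), red for higher and blue for lower at an adjusted p under 0.05 and open otherwise, with the median of the list as a black bar. *BOK*, *BIK* and *CASP8* are the points at 1.69 or more, and the medians of the lists shown lie between -0.23 and 0.15.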

How the data were processed

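The authors trimmed the reads with Trimmomatic 0.38, aligned and quantified them with RSEM 1.3.1 on the GRCh38 primary assembly with Gencode v43, and deposited gene counts normalized with DESeq2 1.30.0 (versions from the submitters' processing notes). The deposited values are a signal that is never negative and not whole. Between 45.4% and 59.8% of low values lay within 0.05 of a whole multiple of the value of 1 read, so counts were not recovered, depths are approximate and the study's count test was replaced by limma. The limit of detection was 3 reads, a value of 2.67 to 3.23, and covers counting error only. Second copies of 47 pseudoautosomal genes were left out, and 62639 of 62710 identifiers matched Gencode v44 symbols and lengths, on the same build.

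The test was a linear model of log2(value + 1) on group alone, fitted to genes with a mean of at least 10 in limma 3.58.1 under R 4.3.3, with eBayes moderation towards an intensity trend. The steps were tested on simulated data, in which the changes set were larger than those of the called members. That test does not cover changes of their size. Summaries used Python 3.11.15. Other settings tried were TMM scaling, quantile normalization, a pseudocount of 0.1 or 10, a minimum mean of 50 or none, no trend, each library left out, centring on 25 tested neighbours per side, and merged exon length. Genes named are the 10 members, other family genes, genes overlapping a member, and from each other list at most 3 called genes, those of lowest p. *CASP10*, *HTRA2*, *XIAP*, *FASLG*, *TNFSF10* and the marker genes were named outside that rule. Some genes and 1 list that the rule covers are not reported here. The members and lists were chosen with earlier results of these data known.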

Additional observations from a re-analysis of the deposited data

How the results depend on the processing

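No paired analysis was made because the 2 groups share no replicate number. The paper calls the parental and resistant cells matched, but which library goes with which is not given in the sources used here. Each of the 10 members was tested under 14 alternatives, and 139 of these 140 results stayed on their side of the threshold. With local median centring 0 members were called higher, since *BCL2L2* was no longer called, and the log2 fold change of *MDM2*, a ubiquitin ligase gene on chromosome 12 that was otherwise called lower at -0.52, was 0.015. The death receptor list had 2 genes called with quantile normalization, and the list of ubiquitin enzymes of MCL1 had 1 called without the trend. With each library left out in turn, the ubiquitin list had 1 to 2 genes called, the median of the other BCL2 family genes lay between -0.067 and 0.18 (0.18 without resistant library 8), the members called stayed at 5, and the genes called over the whole table lay between 4784 and 5618. Per kb of merged exons, the guardian sum was 1024 in parental and 888 in resistant cells, the effector sum 964 and 823, and the BH3-only sum 1453 and 1053. The cause of these changes was not tested. Depth limits *BBC3*, *HRK* and *BCL2L14*, whose values lay under 100 in every library.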

Other observations

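The mitophagy receptors *BNIP3* and *BNIP3L* differed more between libraries of a group than between the groups. *BNIP3* was at 1495, 3296 and 1808 in parental libraries 1, 2 and 3 and at 1360, 2793 and 1668 in resistant libraries 7, 8 and 9. *BNIP3L* was at 1176, 1777 and 1342 and at 1172, 1631 and 1375. In each group the library in the middle of the numbering was the highest for both genes. Whether those libraries share an extraction day is not given in the sources used here. *HUWE1* was at 49260, 53032 and 36511 in the resistant libraries, a wider spread than the 26442 to 29611 of the parental libraries.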
